A study of Homo sapiens with 3 samples.

Results

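The messages of 10 immediate early transcription factors and regulators were followed across 3 RNA sequencing libraries of the established pancreatic cancer cell line MIAPaCa-2, of human origin. The genes were FOS, FOSB, FOSL1, FOSL2, JUN, JUNB, JUND, EGR1, ATF3 and IER2. They were picked by symbol, with earlier results of these data known, and all 10 were among the 14949 genes of the deposited table. The gene lists below were also chosen with those results known. The table held only genes with at least 0.503 CPM (reads scaled to the library's total) in their highest library, and all 10 genes passed that limit. The sh-CTL library came from untreated cells carrying a control short hairpin RNA. The sh-METTL3 library came from untreated cells carrying a hairpin against METTL3, the catalytic core of the complex that writes N6-methyladenosine into RNA. The sh-CTL + PLK1i library came from sh-CTL cells given 80 nM of NMS-P937, an inhibitor of the mitotic kinase PLK1, for 24 h. Each group had 1 library, and the sources used here did not say whether a hairpin line was 1 clone or a pool, or whether untreated cells received a vehicle. Differences between single cultures and effects of the hairpin or the drug cannot be told apart in this design. No p-value, SD or SE was computed.

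Immediate early genes are transcribed within minutes of a growth signal or stress, without new protein synthesis, and many of their messages are short-lived. FOS and JUN proteins are basic leucine zipper factors that pair to form AP-1, which binds the TGANTCA element. FOS family proteins need a partner, whereas JUN proteins also pair with themselves. EGR1 is a zinc finger factor that binds the GC-rich GCGNGGGCG element, ATF3 is a stress-induced zipper factor related to both AP-1 and CREB, and IER2 is a small immediate early nuclear protein. FOSL1 is well known as a downstream target of ERK signalling.

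Growth and stress signals are read through short promoter elements, and stretches of 6 of the promoters that hold letters of such elements are shown here. The RefSeq promoter table of GRCh38.p14, which covers 250 bases before to 50 bases after each annotated start, had entries for 9 of the 10 genes and none for FOSL1. Each promoter matched its GRCh37 chromosome exactly once, and the positions below are on GRCh37. In the stretches below, capitals mark matches on either strand to the CArG box, the element that SRF binds, to TGACG, to its palindrome TGACGTCA, which contains TGACG, or to TGANTCA.
EGR1, chr5:137801017-137801106, plus strand: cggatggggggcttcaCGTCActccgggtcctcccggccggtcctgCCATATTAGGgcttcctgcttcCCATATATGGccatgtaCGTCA
FOS, chr14:75745424-75745513, plus strand: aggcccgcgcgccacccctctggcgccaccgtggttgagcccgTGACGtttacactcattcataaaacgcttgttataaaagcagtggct
FOSB, chr19:45971151-45971240, plus strand: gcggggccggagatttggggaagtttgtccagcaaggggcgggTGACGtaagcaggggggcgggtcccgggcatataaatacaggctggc
JUN, chr1:59249796-59249885, minus strand: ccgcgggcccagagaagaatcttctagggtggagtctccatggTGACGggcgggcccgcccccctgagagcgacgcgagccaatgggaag
FOSL2, chr2:28615646-28615735, plus strand: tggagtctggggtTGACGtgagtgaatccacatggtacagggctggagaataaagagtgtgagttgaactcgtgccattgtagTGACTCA
JUND, chr19:18392543-18392632, minus strand: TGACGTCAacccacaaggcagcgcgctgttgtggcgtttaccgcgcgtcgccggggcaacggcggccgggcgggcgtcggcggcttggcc

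TGACG, the core of the cAMP response element, was present in the promoters of 8 of the 9 genes, against 24.6% of all 35116 promoters in the table. It stood 64 bases before the start in FOS and 60 bases before it in FOSB, and the ATF3 entries had none. The CArG box occurred in 1.29% of all promoters and, of the 9 genes, in EGR1, where its copies began 105 and 83 bases before the start. The full TGACGTCA palindrome occurred in JUND and in 1.85% of all promoters. TGANTCA occurred in FOSL2 and in 7.71% of all promoters, and GCGNGGGCG in EGR1 and in 9.43%. FOSL2 and IER2 carried TGACG as well, and their messages were those that differed least between sh-CTL + PLK1i and sh-CTL. A match describes the letters in the window and not a bound site. Bases further than 250 before the start were not searched, so a gene without a match may carry the element there.

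The libraries held 37449259, 46944920 and 47727541 reads in listed genes for sh-CTL, sh-METTL3 and sh-CTL + PLK1i. METTL3 had 3378, 1781 and 4223 reads in the same order, and its normalized count in the knockdown came to 41.9% of the control value. The log2 change of PLK1 was -0.62 in sh-METTL3 and 0.08 with the inhibitor. Among epithelial markers, KRT8 and KRT18 had 43957 to 124197 reads, KRT19 3361 to 5710, CLDN4 616 to 1089 and ESRP1 3 to 26. CDH1, EPCAM and KRT7 had no row in the table. Among mesenchymal markers, VIM had 199813 to 267673 reads and ZEB1 2510 to 4169, and CDH2 and FN1 had no row. No endothelial or acinar marker was listed. Of 5 immune markers 2 were listed, with summed normalized counts of 1868, 3396 and 2756. Most of that was CD68, at 1755, 3243 and 2647, and the rest LYZ. PTPRC, CD3E and CD79A had no row. Of 5 fibroblast markers 2 were listed, with sums of 40975 to 51464. Nearly all of that was COL1A2, while COL1A1 had 34, 6 and 36 reads. DCN, LUM and PDGFRB had no row. Mitochondrially encoded genes took 4.89%, 4.80% and 5.55% of reads. Scaling to total reads without them and the 10 most abundant genes moved the median log2 change of all genes by 0.0021 in sh-METTL3. With the inhibitor it moved that median by -0.0015. Any other part of these marker and mitochondrial shifts in the results was not tested.

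In the inhibitor library, 6 of the 10 genes were at least 1.5-fold higher than in sh-CTL and none was 1.5-fold lower. FOSB, ATF3, EGR1, FOS, JUN and FOSL1 were the higher genes, by 5.65-fold at most. Of all listed genes, 3.97% were that much higher and 4.01% that much lower. Among genes whose normalized count averaged 500 or more over the libraries, EGR1, JUN and FOSL1 were the higher genes, 3 of the 7 members at that level, against 0.474% of the 9074 genes there. None of the 7 was lower, against 0.375%. The median log2 change of the 10 genes was 0.80, beside 0.00 for all genes.

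In the knockdown library the changes of the 10 genes ran in both directions, from -0.67 to 0.66 on the log2 scale. JUNB, JUND, FOSL2 and IER2 differed more from sh-CTL there than in the inhibitor library, and the other genes less. FOS was the single gene at least 1.5-fold higher, beside 7.76% of all genes, and FOSB the single gene that much lower, beside 6.70%. A count of 1 of 10 in each direction lies near those shares. Where the normalized count averaged 500 or more, none of the 7 genes was 1.5-fold higher, beside 2.03% of genes, or lower, beside 2.71%. The median log2 change of the 10 genes was 0.20, beside 0.00 for all genes. Log2 changes here are of the normalized count plus 1, and the ranges in parentheses are 95% exact Clopper-Pearson intervals for the ratio of reads. They cover counting error only and compare 2 libraries. Both comparisons use the same sh-CTL library, and a change in every cell and a change in the share of cells that express a gene cannot be told apart in bulk RNA.

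**Figure D1:**
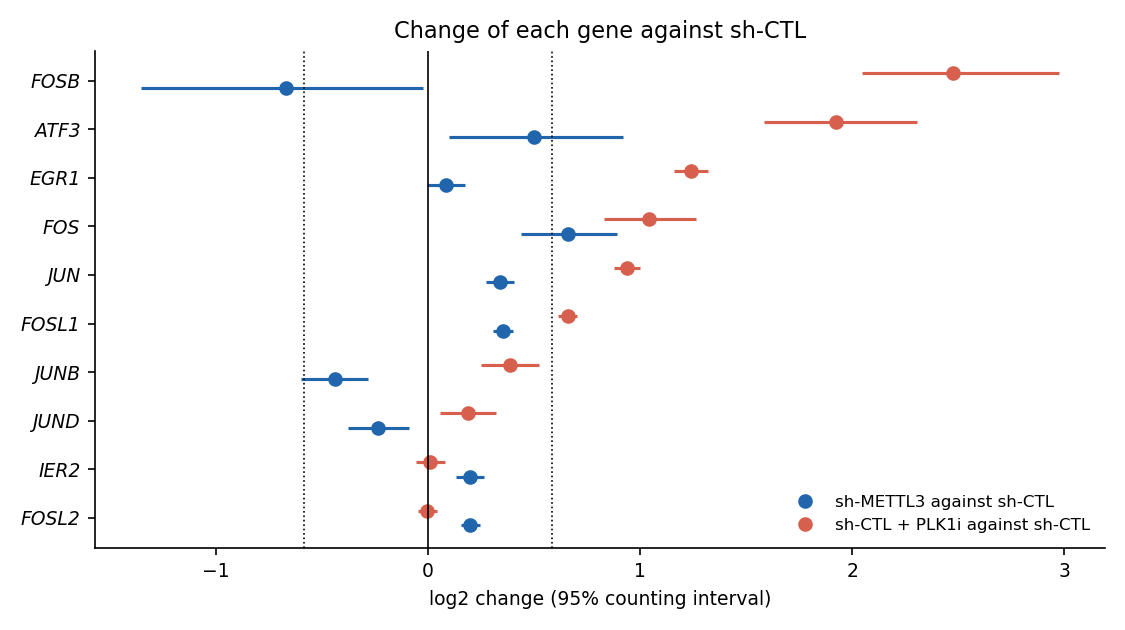
Log2 change of each gene against sh-CTL, for sh-METTL3 in blue and sh-CTL + PLK1i in red, with 95% counting intervals. The dotted lines mark 1.5-fold. FOSB reaches 2.48 with the inhibitor and -0.67 in the knockdown, while FOSL2 and IER2 stay at 0.20 or below in both.

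FOS, the founding member of its family, is encoded at chr14:75745529-75748933 on the plus strand (ENSG00000170345). It had 244 reads in the control library (sh-CTL), 486 in the knockdown library (sh-METTL3) and 638 in the inhibitor library (sh-CTL + PLK1i), or normalized counts of 285, 450 and 587. Both other libraries lay above sh-CTL, and the inhibitor library was the highest. The log2 change was 0.66 in sh-METTL3 (0.44 to 0.89) and 1.04 with the inhibitor (0.83 to 1.26). The inhibitor library exceeded the knockdown library directly by 0.38 (0.21 to 0.56).

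FOSB, which lies at chr19:45971253-45978437 on the plus strand (ENSG00000125740), encodes the FOS relative best known from lasting neuronal stimulation. It had 46, 36 and 329 reads in sh-CTL, sh-METTL3 and sh-CTL + PLK1i, with normalized counts of 53.6, 33.4 and 303. The inhibitor library stood far above the other two. The log2 change with the inhibitor was 2.48 (2.05 to 2.98), the 22nd largest rise of all 14949 genes. In sh-METTL3 it was -0.67 (-1.36 to -0.02), an estimate that rests on 46 and 36 reads and is whose interval runs from near no change to over 2-fold lower. The FOSB span overlaps ERCC1 on the opposite strand, with 0 shared exon bases.

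FOSL1, at chr11:65659520-65668044 on the minus strand (ENSG00000175592), encodes FRA1, a form that lacks the transactivation domain of FOS. Its reads numbered 6173 in the control, 9914 in the knockdown and 12336 in the inhibitor library, and its normalized counts were 7198, 9189 and 11357. It was therefore ordered like FOS, with sh-CTL lowest and the inhibitor library highest, but at a much higher count. The log2 changes were 0.35 (0.31 to 0.40) and 0.66 (0.61 to 0.70), the latter wholly above 1.5-fold within counting error.

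FOSL2, which encodes the related FRA2 at chr2:28615315-28640184 on the plus strand (ENSG00000075426), behaved differently. Its reads were 6755, 9748 and 8533 and its normalized counts 7877, 9035 and 7856 in sh-CTL, sh-METTL3 and sh-CTL + PLK1i. The inhibitor library was level with sh-CTL and the knockdown library was the highest. The log2 change was 0.20 in sh-METTL3 (0.15 to 0.24) and -0.00 with the inhibitor (-0.05 to 0.04).

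JUN, the prototype of the JUN proteins, is encoded at chr1:59242517-59249720 on the minus strand (ENSG00000177606). The control, knockdown and inhibitor libraries held 3025, 4814 and 7337 reads, which gave normalized counts of 3527, 4462 and 6755. The order was again sh-CTL, sh-METTL3 and inhibitor. The log2 change was 0.34 in the knockdown (0.27 to 0.41) and 0.94 with the inhibitor (0.88 to 1.0).

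JUNB, at chr19:12902300-12904129 on the plus strand (ENSG00000171223), is a weaker activator than JUN and can oppose it. The 3 libraries gave 697, 646 and 1155 reads and normalized counts of 813, 599 and 1063. Here sh-METTL3 was the lowest library and the inhibitor library the highest. The log2 change was -0.44 in sh-METTL3 (-0.60 to -0.28) and 0.39 with the inhibitor (0.25 to 0.53), both short of 1.5-fold. JUNB shares 259 exon bases with HOOK2 on the opposite strand. The library kit keeps strand, but the strand setting used in counting was not given in the sources used here.

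JUND, at chr19:18390504-18392432 on the minus strand (ENSG00000130522), is the most constantly expressed JUN gene in many cells. It had 783, 837 and 1130 reads and normalized counts of 913, 776 and 1040. Its order matched that of JUNB, with smaller changes of -0.23 in sh-METTL3 (-0.38 to -0.09) and 0.19 with the inhibitor (0.06 to 0.32).

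**Figure D2:**
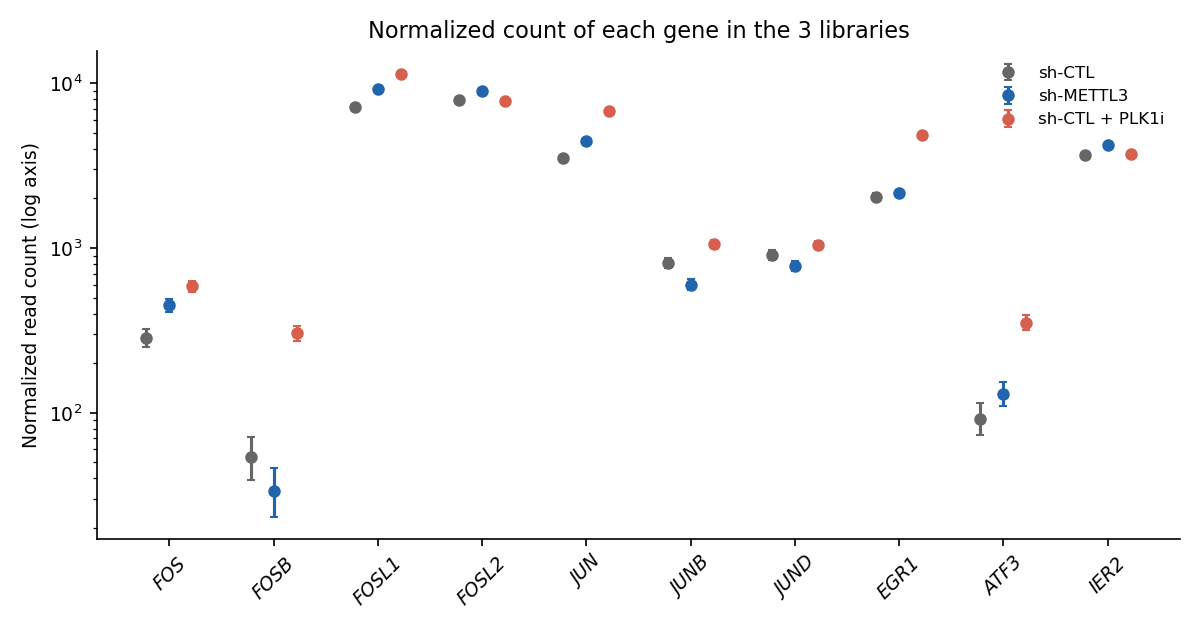
Normalized read count (log axis) of the 10 genes in sh-CTL (grey), sh-METTL3 (blue) and sh-CTL + PLK1i (red). Each point is 1 library and its bar is the 95% exact Poisson interval of its reads. The inhibitor library is the highest for 8 genes and sh-METTL3 is the highest for FOSL2 and IER2.

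EGR1, at chr5:137801168-137804992 on the plus strand (ENSG00000120738), is the gene whose promoter carried the CArG boxes printed above. Reads numbered 1754 in the control, 2341 in the knockdown and 5248 in the inhibitor library, and normalized counts were 2045, 2170 and 4831. The first 2 libraries lay close together and the third stood apart. The log2 change was 1.24 with the inhibitor (1.16 to 1.32) and 0.09 in the knockdown (-0.00 to 0.18), so a difference between sh-METTL3 and sh-CTL was not detectable at this depth. The inhibitor library exceeded the knockdown library by 1.15 (1.08 to 1.23).

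ATF3, at chr1:212738676-212794119 on the plus strand (ENSG00000162772), had few reads in the untreated libraries. The reads were 79 in the control, 141 in the knockdown and 383 in the inhibitor library, normalized to 92.1, 131 and 353. Its log2 change was 1.92 with the inhibitor (1.58 to 2.30), the 36th largest rise of all genes, and 0.50 in sh-METTL3 (0.10 to 0.92). All 3 libraries were therefore separated in the order of FOS and JUN.

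IER2, at chr19:13261225-13265725 on the plus strand (ENSG00000160888), had 3149, 4544 and 4016 reads and normalized counts of 3672, 4212 and 3697. As for FOSL2, the inhibitor library was level with sh-CTL, with a log2 change of 0.01 (-0.06 to 0.08), and sh-METTL3 lay above it by 0.20 (0.13 to 0.26). For each of the 10 genes, the interval of the direct difference between the inhibitor and knockdown libraries excluded 0.

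**Figure D3:**
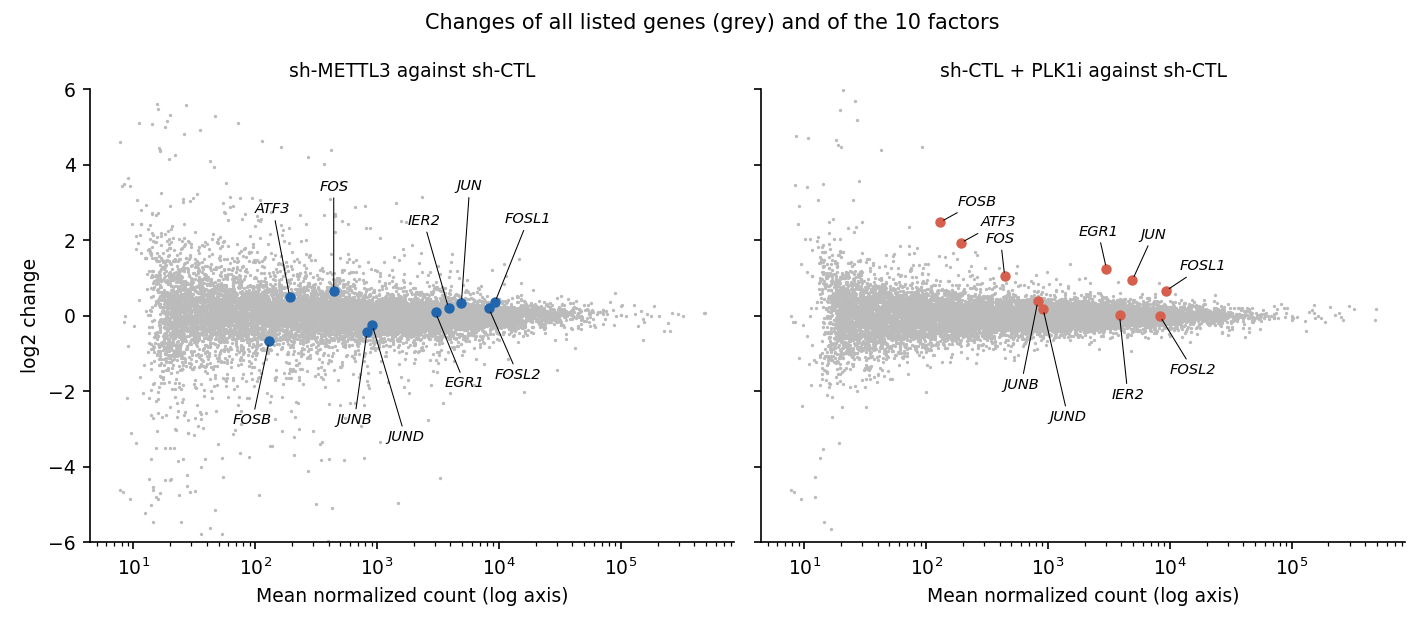
Log2 change against sh-CTL plotted over the mean normalized count (log axis) for all listed genes (grey) and the 10 factors (coloured), with 17 genes beyond the axis at left and 2 at right. With the inhibitor, FOSB, ATF3, EGR1, FOS, JUN and FOSL1 lie at 0.66 to 2.48, above most genes of similar count.

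Compared per length, as normalized counts per kilobase of annotated exons, FOSL1 was the most abundant of the 10 messages in every library, at 3815, 4870 and 6018. In sh-CTL it was followed by IER2 at 1193, FOSL2 at 1100, JUN at 973 and EGR1 at 652. JUND at 473 and JUNB at 444 came next, then FOS at 89.3, ATF3 at 23.0 and FOSB at 9.66. The same order held in sh-METTL3, where JUN passed FOSL2 if the longest transcript was taken as the length. The order of JUN, FOSL2 and IER2 rests on small differences and on the lengths used, and no replicate spread was available to set beside them. With the inhibitor, JUN at 1864 and EGR1 at 1540 passed IER2 at 1201 and FOSL2 at 1097, and JUNB at 581 passed JUND at 539.

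The summed per-length level of the FOS family was 5013 in the control, 6279 in the knockdown and 7354 in the inhibitor library. That of the JUN family was 1891, 1961 and 2984. FOSL1 made up 76.1%, 77.6% and 81.8% of the FOS family sum, and FOSL2 21.9%, 20.1% and 14.9%. FOS itself held 1.78%, 2.25% and 2.51%, and FOSB no more than 0.742% even after its 5.65-fold higher count with the inhibitor. These shares depend on the length used. With the longest transcript as the length, FOS held 2.44%, 3.07% and 3.40%, and FOSB reached 0.978% with the inhibitor. In the JUN family, JUN held 51.5% in sh-CTL and 62.8% and 62.5% in the other two libraries, while JUNB held 23.5%, 16.7% and 19.5% and JUND 25.0%, 20.5% and 18.1%. The JUN share was thus alike in sh-METTL3 and the inhibitor library although the summed level was not.

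**Figure D4:**
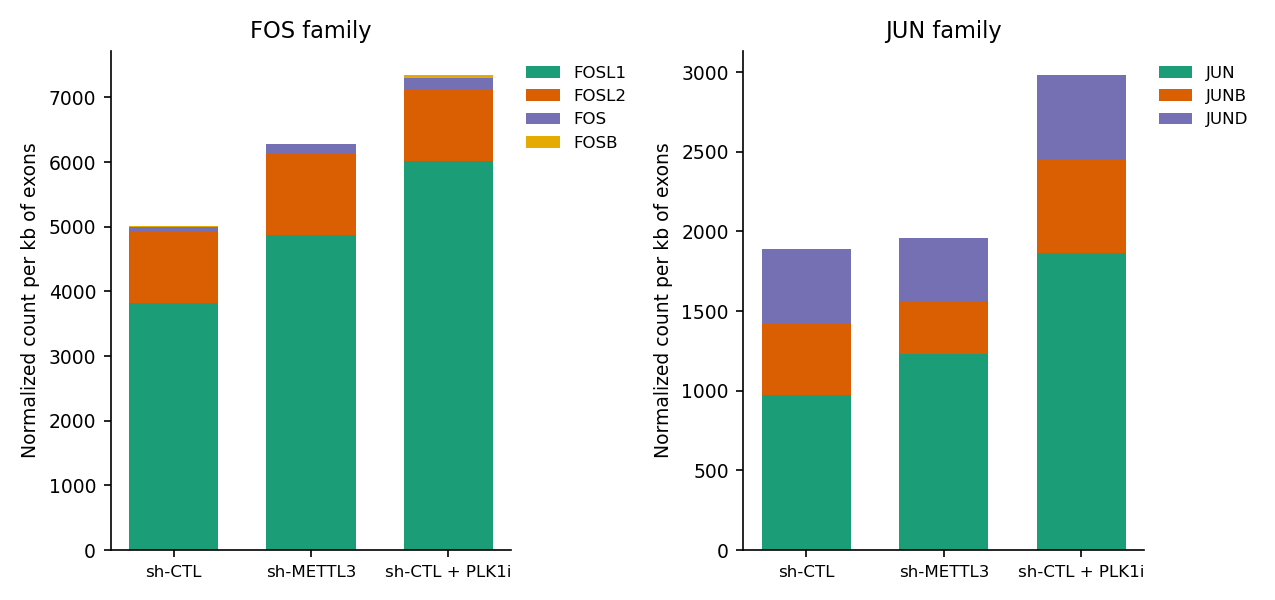
Summed normalized counts per kilobase of exons of the FOS family (left) and the JUN family (right) in each library, divided by gene. With the inhibitor the FOS family sum was 1.47-fold and the JUN family sum 1.58-fold that of sh-CTL, and FOSL1 fills most of the FOS family bar in all 3 libraries.

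The other EGR genes were also higher with the inhibitor. Of 5 genes in the list of other EGR factors and NAB corepressors, 3 were at least 1.5-fold higher and none was lower. The shares of all listed genes were 3.97% and 4.01%. These 3 have mean counts below 200 and are named here after their values were seen. EGR4 had 9, 14 and 275 reads in sh-CTL, sh-METTL3 and sh-CTL + PLK1i, a log2 change of 4.47 with the inhibitor (3.65 to 5.74). EGR2 had 5, 14 and 61 reads, a change of 3.06 (1.97 to 4.94). EGR3 had 91, 137 and 329 reads, a change of 1.5 (1.17 to 1.86). NAB1 and NAB2, which encode corepressors of EGR proteins, gave -0.13 and 0.06. In sh-METTL3, EGR2 was the single gene past 1.5-fold, with an interval of -0.40 to 2.98, beside 7.76% of all listed genes higher.

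Among 28 listed genes of 30 other immediate early genes, 9 were at least 1.5-fold higher with the inhibitor and none was lower. With 0.5 in place of 1 added to the normalized counts, 10 were higher. The shares of all listed genes were 3.97% and 4.01%. The median log2 change of the 28 was 0.44. CCN1, a matricellular protein, had 2884, 1875 and 6785 reads and changes of -0.95 in sh-METTL3 (-1.04 to -0.87) and 0.89 with the inhibitor (0.83 to 0.96). KLF4, a zinc finger factor, had 194, 1834 and 522 reads and was 7.51-fold and 2.12-fold the sh-CTL level. TRIB1, a pseudokinase, was higher in both libraries, by 0.71 and 0.81. CCN2, a target of YAP and TEAD, fell to 13 reads in sh-METTL3 from 350 in sh-CTL and had 563 with the inhibitor. IER3, a stress-inducible survival gene, gave -0.76 in sh-METTL3 and 0.46 with the inhibitor. In sh-METTL3 the list had 2 genes higher and 4 lower, beside 7.76% and 6.70% of all listed genes, and its median was -0.03.

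Of 27 AP-1 dimer partners and related zipper genes, 21 were listed. With the inhibitor 4 were at least 1.5-fold higher and none lower, beside 3.97% and 4.01% of all listed genes, at a median of 0.11. DDIT3, the stress factor CHOP, had 229, 279 and 582 reads and a change of 1.0 (0.78 to 1.23). CEBPB gave 0.81 (0.64 to 0.98), and MAFF, a small MAF protein, 0.73 (0.51 to 0.95). MAFF is also in the list of other immediate early genes and is counted as higher in both lists. Of the 4 partners, 3 had a mean normalized count of at least 200. In sh-METTL3 the median was -0.05, with 1 gene higher and 1 lower, near the 7.76% and 6.70% of all listed genes. NFE2L3 was the lower gene, at -0.61 (-0.69 to -0.53).

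Messages of the factors that act on these promoters lay nearer to their control levels. None of 17 upstream factors, which include SRF, its ternary complex partners and CREB family members, passed 1.5-fold in either comparison. All 17 had a mean normalized count of at least 500. Of all genes at that level, 0.474% were higher and 0.375% lower with the inhibitor, and 2.03% and 2.71% in sh-METTL3. A count of 0 of 17 lies near those shares. Their log2 changes ran from -0.26 to 0.29 with the inhibitor, with SRF at 0.20, and from -0.52 to 0.25 in sh-METTL3. Of 19 upstream kinases, none was higher and 2 were lower with the inhibitor, beside 3.97% and 4.01% of all listed genes, at a median of -0.09. In sh-METTL3 1 was higher and 1 lower, near the 7.76% and 6.70% of all listed genes. MAP3K5, the stress kinase ASK1, was the higher gene, with 52 reads in the control, 1075 in the knockdown and 41 with the inhibitor. Messages give no measure of phosphorylation, through which these kinases and factors act.

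Of 27 genes described as targets of AP-1 or EGR1, 20 were listed. With the inhibitor 5 were at least 1.5-fold higher and 1 was lower, beside 3.97% and 4.01% of all listed genes, at a median of 0.22. In sh-METTL3 1 was higher and 5 were lower, beside 7.76% and 6.70% of all listed genes, at a median of -0.07. MMP10 and MMP13, with 0 reads there, are among the 5. MMP1, an interstitial collagenase and textbook AP-1 target, had 301 reads in the control, 5 in the knockdown and 914 with the inhibitor. Its level was 1.32% of sh-CTL in sh-METTL3 and 240% with the inhibitor (log2 change 1.26, 1.07 to 1.45). The chemokine gene CXCL8 had 1659, 1329 and 3824 reads and changes of -0.65 (-0.76 to -0.55) and 0.86 (0.78 to 0.95). HBEGF, an EGF receptor ligand, gave -0.18 and 0.91. The growth factor genes PDGFB and PDGFA gave 0.70 and -0.81 in sh-METTL3, and -0.89 and -0.19 with the inhibitor.
MMP10 and MMP13, named after their values were seen, had 46 and 11 reads in the control and 0 in the knockdown, where 3 reads were taken as the floor. Their normalized counts in the control were 19.3-fold and 4.61-fold that floor, without counting error in the control reads. The upper limits of their counting intervals for the log2 change in sh-METTL3 were -3.91 for MMP10 and -1.66 for MMP13. With the inhibitor they had 116 and 69 reads.

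**Figure D5:**
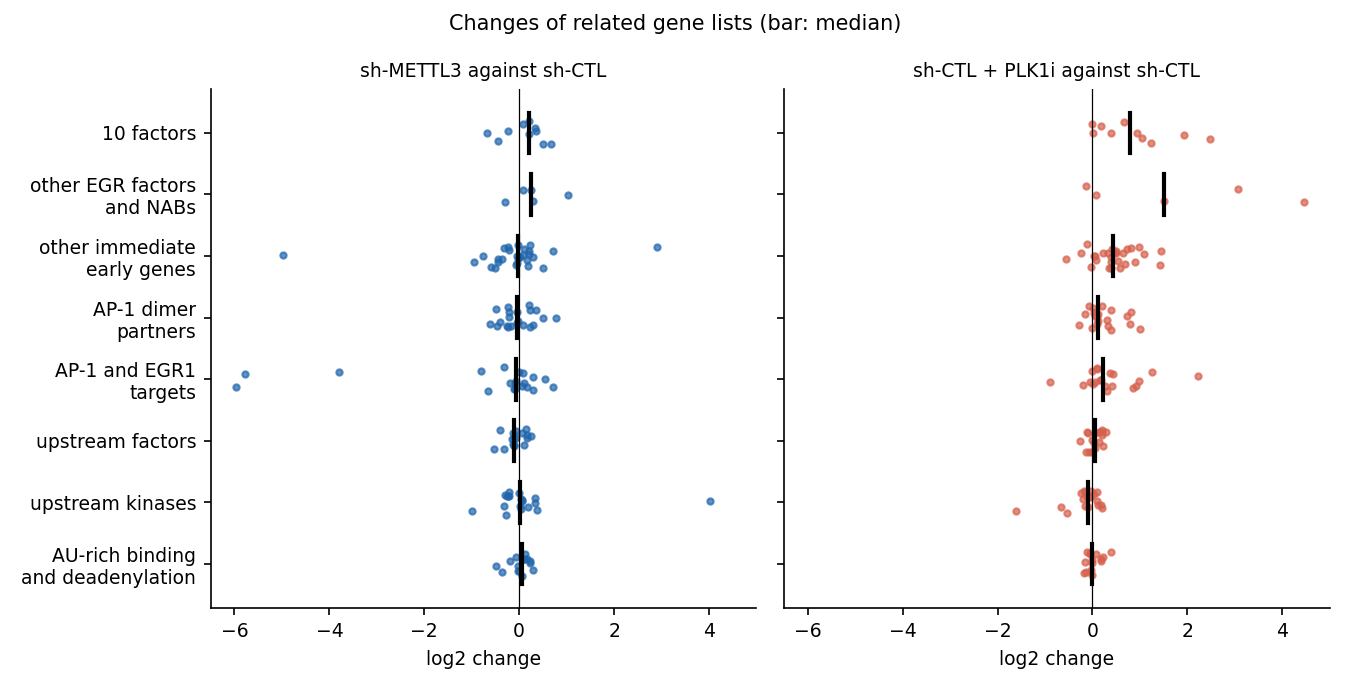
Log2 change against sh-CTL of each listed gene (points) and list median (bar) in sh-METTL3 (left) and sh-CTL + PLK1i (right). With the inhibitor the medians are 0.80 for the 10 factors, 1.5 for the other EGR and NAB genes and 0.44 for other immediate early genes. The points of MMP10 and MMP13 at left stand for 0 reads.

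Many immediate early messages are removed quickly through AU-rich elements, whose core is ATTTA. In the canonical transcripts of GENCODE 44, the 3′ untranslated region of FOS held 5 copies, or 6.20 per kilobase, at percentile 95.3 of 12152 genes. JUNB followed at 4.0 per kilobase, and IER2 had 0. The median of the 10 genes, 1.62, was close to the 1.64 of all genes. The longer TTATTTATT occurred in FOS and FOSL2, 2 of 10 genes, against 9.45% of all genes. The stretches richest in ATTTA, with the matches in capitals, are shown for these genes on GRCh37.
FOS, chr14:75748760-75748789, plus strand: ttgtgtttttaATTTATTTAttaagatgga
FOSL2, chr2:28639215-28639244, plus strand: aattgacATTTAttttattATTTAttttaa
JUNB, chr19:12903873-12903902, plus strand: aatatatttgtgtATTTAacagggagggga
None of 15 genes for proteins that bind AU-rich messages or remove poly(A) tails, with the N6-methyladenosine reader YTHDF2 among them, passed 1.5-fold in either comparison. Of all listed genes, 3.97% were higher and 4.01% lower with the inhibitor, and 7.76% and 6.70% in sh-METTL3. A count of 0 of 15 lies near those shares. The list holds ELAVL1, known as a stabilizer of AU-rich messages, besides factors of their decay. ZFP36, which encodes the AU-binding protein tristetraprolin, gave -0.36 in sh-METTL3 and 0.40 with the inhibitor. GGACT, a common form of the N6-methyladenosine motif, occurred at a median of 1.11 per kilobase over the whole canonical transcripts of the 10 genes and 0.928 over those of all genes. IER2, at 2.84 per kilobase, stood at percentile 97.8, and EGR1 had 0. The log2 changes of those genes in sh-METTL3 were 0.20 and 0.09, as given above, and no methylation was measured in these libraries.

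The genes most like FOS, JUN and EGR1 were sought by the distance between pairs of log2 changes. The search ran over 8985 other genes that had a symbol and whose normalized count averaged 500 or more. FOS itself averaged 441. For JUN the nearest were PER1, GLDC and IFIT3, at distances of 0.10, 0.11 and 0.12, and 6 genes lay within 0.25. PER1, a circadian repressor that is itself inducible, had 480, 727 and 1105 reads. For FOS the nearest were TIMM23B-AGAP6, PAX8-AS1 and IFIT3, at 0.19 to 0.22. TIMM23B-AGAP6 is a readthrough transcript and PAX8-AS1 an antisense RNA, so both share sequence or position with other genes and their counts are uncertain. For EGR1 the nearest, H2BC12, a histone gene, lay at 0.35, and 0 of the genes searched lay within 0.25. These are likenesses of 2 values from 3 libraries.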

How the data were processed

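ISOGEN was used for RNA extraction and a stranded TruSeq mRNA kit for the libraries. The authors deposited log2 expression values for 14949 genes, and the submitters' processing notes name FastQC 0.11.9, STAR 2.7.10, RSEM 1.3.3 and hg19 without their roles. As deposited, the lowest log2 value was exactly 2, and values equalled log2 of a scaled count plus 4. The size factors were 0.858, 1.08 and 1.09 for sh-CTL, sh-METTL3 and sh-CTL + PLK1i. After undoing this, 100% of values below 2000 reads lay within 0.1 of a whole read, and reads were recovered; normalized counts are the deposited scaled counts. Their normalization method was not given in the sources used here. A count test was not run on the recovered reads because each group had 1 library. Columns were assigned to samples by their names. Changes were differences of log2(normalized count + 1), which understates changes of low genes. Amplified reads are not independent molecules, so intervals and floors cover counting error only.

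The members and gene lists were chosen with earlier results of these data known. Named genes were the members, METTL3, PLK1, up to 6 genes a list past 1.5-fold whose normalized count averaged 200 or more, and the 3 nearest genes to FOS, JUN and EGR1. Annotation was GENCODE 44 on GRCh37, which held 14858 of the identifiers. Python 3.11.15, numpy 2.4.6, pandas 2.3.3 and scipy 1.17.1 were used, and the scripts were tested on simulated data. Alternatives were other pseudocounts, scalings, fold limits and filters.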

Additional observations from a re-analysis of the deposited data

How the results depend on the processing

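Of 532 recomputed values, 296 were counts and 60 were ranks, which cannot change sign. A pseudocount cannot change the sign of a single log2 change either. Of the 160 recomputed changes and 16 medians of the 10 genes, 1 changed sign. It was the log2 change of IER2 with the inhibitor, which was 0.01 and became -0.00417 under upper quartile scaling. Both values lay within its counting interval. All 160 recomputed changes of the 10 genes moved by less than their counting intervals. The scalings moved the median of all genes by at most 0.0228. Of the 10 genes, the count at least 1.5-fold higher in sh-METTL3 became 0 at a mean normalized count of at least 500, 0 at a limit of 2-fold and 4 at a limit set below 1.5-fold. The count lower became 0 with a pseudocount of 16, 0 at a mean of at least 500, 0 at 2-fold and 2 at that lower limit. With the inhibitor the count higher became 3 at a mean of at least 500, which leaves 7 of the genes to count. It became 4 at 2-fold and 7 at that lower limit. With a pseudocount of 16, AP-1 partners higher and other EGR and NAB genes higher in sh-METTL3 both became 0, and upstream kinases lower with the inhibitor became 1. With genes of a mean of at least 200 alone, the counts in sh-METTL3 became 0 for AP-1 partners higher, 0 for other EGR and NAB genes higher, 0 for upstream kinases lower and 3 for AP-1 and EGR1 targets lower. With the inhibitor they became 0 for other EGR and NAB genes higher, 1 for upstream kinases lower and 3 for targets higher. List counts that moved by a factor of 1.5 or less are not all given. Among these, other immediate early genes higher with the inhibitor went from 9 to 6 at that mean and to 10 with a pseudocount of 0.5. Those lower in sh-METTL3 went from 4 to 3 under several settings. Of 60 recomputed ranks of the per-length levels, 12 moved. Depth limits FOSB and ATF3, which had 46 and 79 reads in sh-CTL. No paired analysis was possible because each group had 1 library.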
